A study of Mus musculus with 12 samples.

Results

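The phagocyte NADPH oxidase is the enzyme with which neutrophils, monocytes and macrophages turn oxygen into superoxide, the respiratory burst that helps to kill ingested microbes. Its 5 subunit genes examined here, Cybb, Cyba, Ncf1, Ncf4 and Rac2, were taken by name from 41214 genes counted per library. All 5 were found and all 5 passed the filter on low counts that left 13822 genes to test. RNA came from leukaemic cells of 4 C57/BL6 mice carrying NUP98-HOXD13, a transgene that joins parts of a nucleoporin and a homeobox protein, is driven in blood cells by Vav regulatory elements, and causes myelodysplasia followed by acute leukaemia. The KD mice were Gfi1 KD/KD and carried the altered allele on both chromosomes. The KI mice were Gfi1 KI/wt and carried 1 altered and 1 wild-type allele. There were 2 mice of each genotype, 1 library per mouse, and both genotypes carried the fusion, so the comparison holds no mouse with normal blood and none with 2 wild-type Gfi1 alleles. The labels give no age, organ, sorting or treatment, and the text below calls the mice KD replicates 1 and 2 and KI replicates 1 and 2.

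In a resting phagocyte the oxidase is held apart. A membrane pair, gp91phox (the catalytic chain, encoded by Cybb) and p22phox (its stabilising partner, encoded by Cyba), carries the electrons across the membrane. An organiser, p47phox (Ncf1), and a lipid-binding adaptor, p40phox (Ncf4), wait in the cytosol until phosphorylation brings them to the membrane. The small GTPase Rac2 joins the complex there. Loss of any of these phox proteins causes or is linked to chronic granulomatous disease in people. In myeloid development some of these genes, Cybb and Ncf1 among them, are switched on as progenitors become promyelocytes and monocytes. Gfi1 is a zinc finger repressor that steers progenitors towards granulocytes, which is the question the genotypes bear on.

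Promoter sequence was found in the RefSeq table (build GRCm38.p6) for 3 of the 5 subunits, and it is shown because Gfi1 binds DNA through a site with the core AATC. Each line gives the 250 bases before the annotated start, read along the gene's strand, with capitals marking every match, on either strand, to AATC, to CCAAT (the CCAAT box), to GGGCGG (the GC box bound by Sp1) or to GAGGAA (a core bound by PU.1, the ETS factor that drives myeloid genes). For Cybb the start in that table lies 18442 bases inside the 5′ end of the gene range given below, so the 2 annotations place its start differently. No 2 matches overlap, and in Cybb a CCAAT and an AATC match lie end to end.
Cybb, chrX:9469325-9469574, minus strand: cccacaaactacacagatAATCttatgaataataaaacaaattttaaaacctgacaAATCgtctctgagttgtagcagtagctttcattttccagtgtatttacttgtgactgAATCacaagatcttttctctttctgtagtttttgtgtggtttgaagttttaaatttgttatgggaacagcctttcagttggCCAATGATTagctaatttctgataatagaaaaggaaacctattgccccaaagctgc
Cyba, chr8:122432941-122433190, minus strand: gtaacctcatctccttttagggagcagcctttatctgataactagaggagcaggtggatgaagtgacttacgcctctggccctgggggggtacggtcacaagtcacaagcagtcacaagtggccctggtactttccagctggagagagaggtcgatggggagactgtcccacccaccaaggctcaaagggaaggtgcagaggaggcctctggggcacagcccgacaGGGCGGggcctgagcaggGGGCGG
Ncf1, chr5:134229626-134229875, minus strand: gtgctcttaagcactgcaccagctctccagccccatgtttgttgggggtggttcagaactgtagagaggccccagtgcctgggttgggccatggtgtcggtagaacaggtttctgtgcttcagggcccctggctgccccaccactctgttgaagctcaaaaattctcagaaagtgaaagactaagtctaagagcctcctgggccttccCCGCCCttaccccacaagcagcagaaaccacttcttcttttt

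AATC was matched 4 times in the Cybb window and in neither of the others, while 69.0% of all 32817 promoter windows of that length hold it. CCAAT was matched in Cybb alone (33.8% of all windows), and GGGCGG in Cyba, with 2 matches, and in Ncf1, with 1 (32.7% of all windows). GAGGAA was matched in none of the 3 windows, against 23.3% of all. In Cybb it lay just past the annotated start, on the opposite strand, at bases 10 to 15 of the transcript, in the stretch chrX:9469302-9469323, minus strand, gttttcatTTCCTCatcagaag, where the capitals mark the match. Of all windows 6.01% hold it in the 50 bases after the start. These matches describe letters and show no binding.

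Gfi1, read as a check of the labels, lay at 7.22 and 1.12 CPM in the KD mice and at 36.2 and 89.0 CPM in the KI mice, where CPM are counts scaled to library size after correction of the libraries by TMM. In published lines known as KI and KD the changed allele encodes the human protein. Reads on mouse Gfi1 would then miss the GFI1 dose from every changed allele, which the KD mice carry on both chromosomes. Gene counts came to 11934542 and 10263454 in the KD libraries and to 4581593 and 10869534 in the KI libraries. KI replicate 1 stood apart, with 88.3% of its unique reads in no gene, against 63.2% to 68.3% in the other 3 libraries. Receptor genes of smell and taste, 1490 in all and silent in blood, averaged 0.594 CPM a gene, against 0.0858 to 0.143 CPM in the other 3.

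Across all genes edgeR's quasi-likelihood test with Benjamini-Hochberg adjustment called 0 of 13822 genes higher and 0 lower in KD (0% in each direction), and accordingly 0 of the 5 subunits. At an unadjusted p under 0.05 it had 178 genes higher (1.29%) and 1153 lower (8.34%). DESeq2 called 142 genes and limma-voom 0, and neither called a subunit. The subunit counts behind these tests ran from 670 to 16336 in a library, so that counting error alone was at most 3.86% of a value (SD). The spread between mice of 1 genotype was larger, up to 1.77-fold. Every p-value here reflects the variation among 4 animals, 2 per genotype.

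The membrane pair did not separate the genotypes. Cybb (ENSMUSG00000015340, chromosome X, 9435252 to 9487766, GRCm38), the catalytic chain, lay at 1156 and 754 CPM in the KD mice and at 1104 and 739 CPM in the KI mice. The levels of the genotypes interleaved, and replicate 1 was the high mouse in both. Its log2 fold change, KD over KI, was 0.05 ± 0.41 (SE), with a 95% interval of -0.98 to 1.08 and adjusted p = 0.998 in edgeR, so a difference of up to 2.12-fold higher or down to 0.507 of the KI level lies within the interval. The value was -0.06 with upper quartile scaling and -0.05 with a filter of at least 5 CPM, so it has no settled sign.

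Cyba (ENSMUSG00000006519, chromosome 8, 122424771 to 122432940), the partner chain, lay at 229 and 329 CPM in KD and at 204 and 299 CPM in KI. Again the genotypes overlapped, but here replicate 2 was the high mouse in both. The log2 fold change was 0.15 ± 0.36 (SE; 95% interval -0.74 to 1.03, adjusted p = 0.980 in edgeR). Without KD replicate 2 it was -0.14.

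Ncf1 was the 1 subunit whose genotypes did not overlap. Ncf1 (ENSMUSG00000015950, chromosome 5, 134220053 to 134229628) encodes p47phox, the organiser whose phosphorylation starts assembly. It lay at 269 and 345 CPM in the KD mice and at 478 and 625 CPM in the KI mice. The means were 307.0 ± 53.5 CPM in KD and 551.8 ± 103.8 CPM in KI (SD, n = 2 each). Both KD mice were below both KI mice. The log2 fold change was -0.85 ± 0.33 (SE), which puts the KD level at 0.556 of the KI level, with a 95% interval of -1.68 to -0.02. The unadjusted p was 0.0471, and the adjusted p of 0.518 in edgeR did not pass. Among all genes tested 38% had genotypes that did not overlap, 23.5% with both KD mice below both KI mice, so 1 of 5 subunits is close to the background share. An annotated long noncoding RNA, LOC115490142, overlaps Ncf1, and another, Gm33784, overlaps Cybb. How the counting treated strand is not stated, so reads of these partners cannot be told apart from those of the subunits.

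The value for Ncf1 stayed negative under each of the 12 alternatives run, from -1.04 without KD replicate 2 to -0.41 with library size only, with adjusted p between 0.286 and 1.00. Scaling by library size only moved the median of all genes by 0.43 on the log2 scale. The Ncf1 value of -0.41 therefore stands against a median of 0.37 for all genes in that fit, and the TMM value of -0.85 against a median of -0.06.

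Ncf4 and Rac2, the other cytosolic subunits, overlapped between genotypes. Ncf4 (ENSMUSG00000071715, chromosome 15, 78244164 to 78262582), whose p40phox product binds the phosphoinositide of phagosome membranes, lay at 157 and 153 CPM in KD and at 155 and 275 CPM in KI. Of these 4 libraries, 3 were nearly equal and KI replicate 2 was alone above them. The log2 fold change of -0.47 ± 0.36 (SE; 95% interval -1.37 to 0.42, adjusted p = 0.785 in edgeR) rested on that mouse, since it was 0.07 without KI replicate 2. Rac2 (ENSMUSG00000033220, chromosome 15, 78559169 to 78572783), the blood cell Rac GTPase that switches the complex on, lay at 302 and 248 CPM in KD and at 266 and 352 CPM in KI. Of the KD mice, 1 lay inside the KI range and the other below it, and the log2 fold change was -0.17 ± 0.31 (SE; 95% interval -0.95 to 0.61, adjusted p = 0.967 in edgeR). The Rac2 value changed sign with library size only (0.27), with no low-count filter (0.0038) and without KI replicate 2 (0.12).

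**Figure D1:**
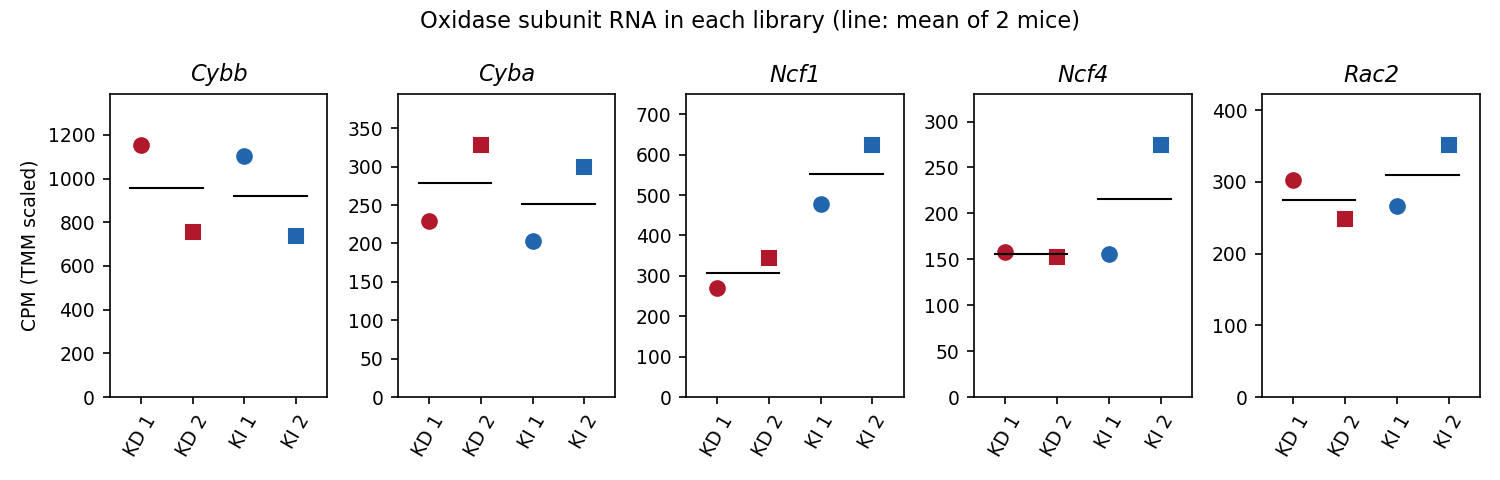
CPM (TMM scaled) of each subunit (vertical axis, from 0) in the 2 KD and 2 KI libraries, 1 point per mouse, circles for replicate 1 and squares for replicate 2, with a line at each mean. Ncf1 is lower in both KD mice, at 269 and 345 CPM, than in both KI mice, at 478 and 625 CPM, whereas Cybb and Cyba differ by replicate number in both genotypes.

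As a set the 5 subunits had 2 positive and 3 negative fold changes and a median of -0.17, beside a median of -0.06 for all genes tested. The sum over the subunits was 2113 and 1829 CPM in KD and 2208 and 2291 CPM in KI. Without KI replicate 2 the median was 0.068, and with library size only it was 0.27.

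A list of 5 partners of the oxidase, Cybc1, Rap1a, Rac1, Cdc42 and Hvcn1, was read beside the subunits. Of these 0 passed in either direction, 3 had positive and 2 negative fold changes, and the median was 0.30. Rac1, the Rac found in most tissues and used by macrophages, lay at 168 and 174 CPM in KD and at 122 and 120 CPM in KI, with both KD mice higher (log2 0.50 ± 0.26, SE). Cybc1, the chaperone that stabilises gp91phox, lay at 93.1 and 86.6 CPM in KD and at 71.0 and 67.4 CPM in KI, also with both KD mice higher (log2 0.38 ± 0.26, SE). Hvcn1, the voltage-gated proton channel that balances the charge carried by the oxidase, lay at 31.6 and 64.7 CPM in KD and at 63.1 and 112 CPM in KI, overlapping, with a log2 value of -0.86 ± 0.47 (SE). Leaving out 1 library moved Hvcn1 to -0.34 (KI replicate 2), -0.43 (KD replicate 1) or -1.47 (KD replicate 2). None of Rac1, Cybc1 and Hvcn1 passed, with adjusted p = 0.594, 0.733 and 0.626 in edgeR. Rac1 and Cybc1 stayed positive under all 12 alternatives. Of all genes tested 14.5% had both KD mice above both KI mice, against 2 of the 5 partners.

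**Figure D2:**
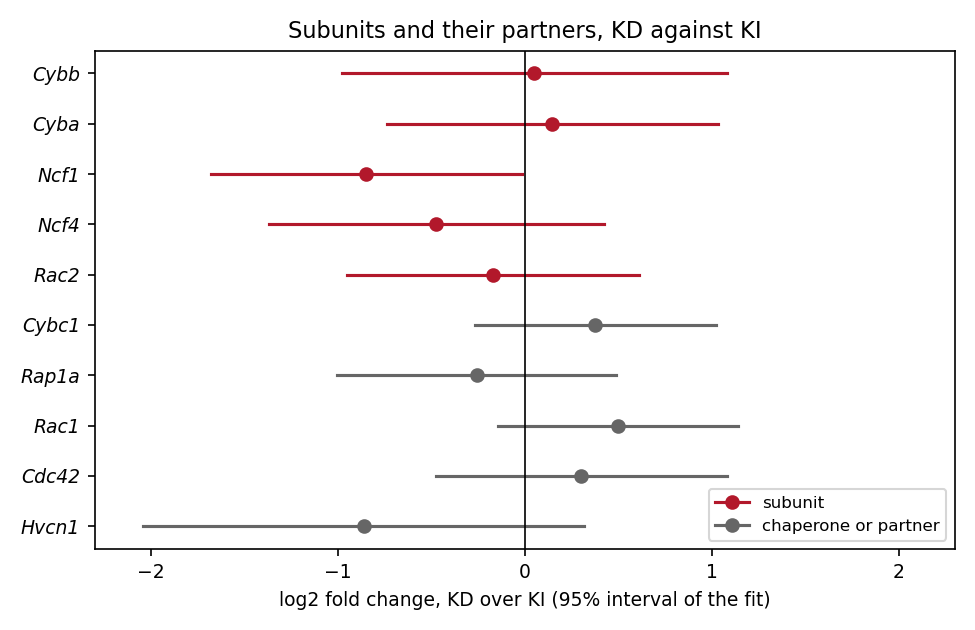
Log2 fold change, KD over KI (horizontal axis), of the 5 subunits and 5 partners, with points at the estimate of the edgeR fit and lines for its 95% interval before any adjustment for the number of genes. Of the 10 genes, the interval of Ncf1 alone ends below 0, at -0.02, and its adjusted p of 0.518 did not pass.

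Ratios of 2 genes counted in the same library do not depend on how the libraries are scaled. They also keep a factor for the genes' lengths, so only the difference of a ratio between libraries is read here. Ncf1 made up 12.7% and 18.9% of the 5 subunits' counts in the KD mice and 21.7% and 27.3% in the KI mice. Its share was lower in both KD mice, and exact 95% binomial intervals, which cover counting error only, did not meet between these libraries (18.3% to 19.4% in KD replicate 2 against 20.8% to 22.5% in KI replicate 1). The shares of Cybb, Cyba, Ncf4 and Rac2 overlapped between genotypes. Of the 10 ratios among the 5 subunits, 4 did not overlap, and 3 of them had Ncf1 on one side. These ratios share genes, and no such share was computed for ratios over all genes. Among single genes 38% did not overlap in CPM, so 4 of 10 does not stand out beside that unlike measure. Ncf1 over Ncf4 separated only narrowly, at 2.25 in KD replicate 2 against 2.27 in KI replicate 2. Cyba over Ncf1 was 0.849 and 0.954 in KD, against 0.426 and 0.478 in KI, a log2 difference of 1.00. Ncf1 over Rac2 was 0.891 and 1.39 in KD, against 1.80 and 1.78 in KI. Outside the 5, Rac1 over Rac2 was 0.558 and 0.699 in KD, against 0.456 and 0.342 in KI. Cybc1 over Cybb, the other ratio taken with a partner, overlapped, at 0.0806 and 0.115 in KD and 0.0643 and 0.0911 in KI. With 2 mice against 2 an exact two-sided permutation test cannot go below p = 0.333, so the ratios are given as values with no test.

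**Figure D3:**
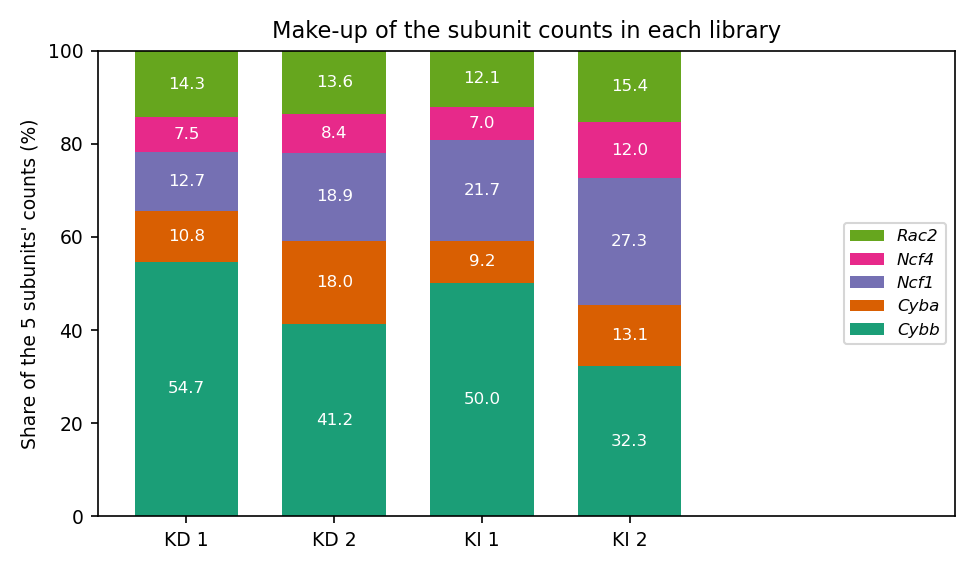
Share of each subunit in the summed counts of the 5 subunits, in percent (vertical axis), in the 2 KD and 2 KI libraries. The Ncf1 segment spans 12.7% and 18.9% in KD and 21.7% and 27.3% in KI, while the Cybb segment is the taller one in replicate 1 of each genotype.

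Cybb and Cyba followed the replicate number more closely than the genotype, in opposite directions. Cybb was 1.53-fold apart between the KD mice and 1.49-fold between the KI mice, with replicate 1 higher each time. Cyba was 1.44-fold and 1.47-fold apart, with replicate 2 higher each time. The ratio of Cybb to Cyba was thus 5.06 in KD replicate 1 and 5.42 in KI replicate 1, but 2.29 in KD replicate 2 and 2.47 in KI replicate 2. In an edgeR fit with genotype and replicate number as terms, added after these values were seen, the log2 difference of replicate 1 over 2 was 0.60 ± 0.26 (SE) for Cybb and -0.54 ± 0.23 for Cyba, with adjusted p = 0.331 and 0.322, so neither passed. Both replicates 1 lay above both replicates 2 for 16.2% of all genes, and below them for 30.1%. The labels do not say what the number marks. Transcripts of the sex chromosomes divided the mice the same way. Xist, the RNA of the inactive X, had 6 and 56 counts in KD and KI replicates 1, against 9795 and 6613 counts in KD and KI replicates 2. The summed Y-linked genes Ddx3y, Kdm5d, Uty and Eif2s3y had 137 and 256 CPM in KD and KI replicates 1, against 0.432 and 0.949 CPM in KD and KI replicates 2. In the edgeR fit with replicate number, even Xist, at a log2 value of -7.89 ± 1.17 (SE), did not pass (adjusted p = 0.122). Kdm5d did, at 6.69 ± 0.45 (adjusted p = 0.0112 in edgeR), and 9 of 13822 genes passed in all. Cybb is X-linked, and sex and any other property of the replicate number cannot be told apart in these 4 mice.

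**Figure D4:**
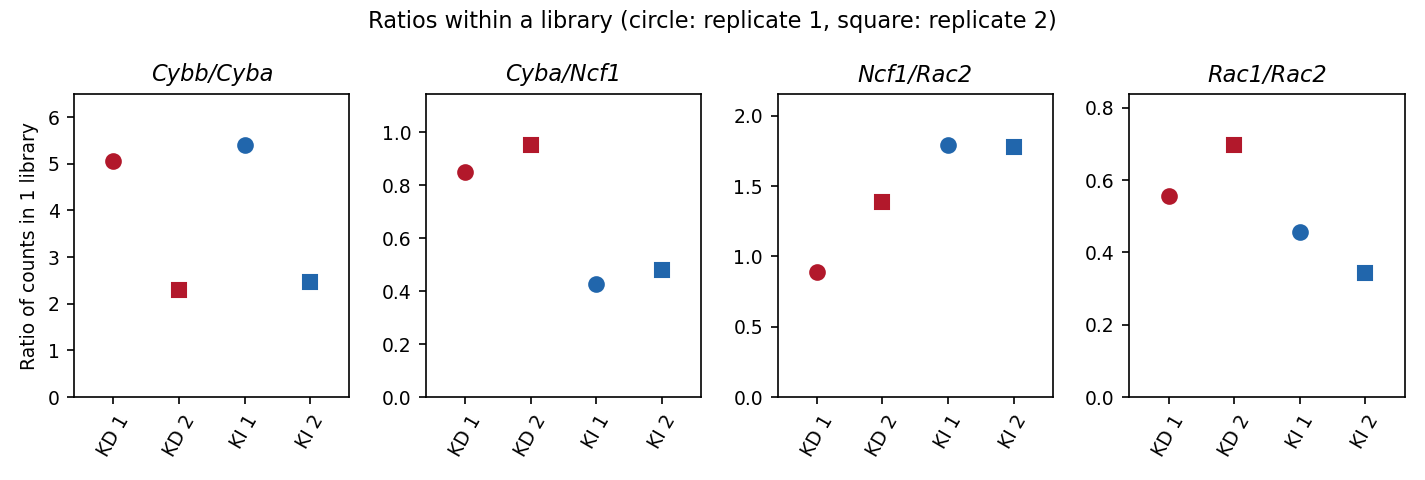
Ratio of the counts of 2 genes within each library (vertical axis, from 0), with circles for replicate 1 and squares for replicate 2 of KD and of KI. Cybb over Cyba separates by replicate number, near 5 in replicates 1 (5.06 and 5.42) and lower in replicates 2 (2.29 and 2.47), while the other 3 ratios do not overlap between KD and KI.

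Neutrophil and monocyte markers were detected in all 4 libraries, and most neutrophil markers had negative and most monocyte markers positive fold changes. Bulk counts cannot tell fewer cells of a type from less RNA per cell. The 12 neutrophil markers, Ngp, Ltf, Camp, S100a8, S100a9, Ly6g, Mmp8, Cxcr2, Retnlg, Lcn2, Mmp9 and Cd177, summed to 3780 and 1846 CPM in KD and to 17000 and 17664 CPM in KI. Of them 0 passed the test, 12 were negative and 11 lay lower in both KD mice, as did 23.5% of all genes. The 11 monocyte markers summed to 8509 and 7644 CPM in KD and to 7429 and 4085 CPM in KI, with 10 positive and 1 negative, 0 passing, and a median of 0.89. Both KD mice were higher for 5 of the 11, beside 14.5% of all genes, and 6 overlapped. Lyz2 alone gave 4738 and 3381 CPM in KD and 4756 and 2019 CPM in KI. The 5 measured primary granule markers, made at the promyelocyte stage, summed to 2296 and 4153 CPM in KD and to 1601 and 3578 CPM in KI, with a median of 0.02. Neutrophils and monocytes both express the oxidase, and the part of these shifts in the subunit values was not tested. The erythroid list summed to 67.4 and 3.46 CPM in KD and to 484 and 476 CPM in KI. For T cells the sums were 12.1 and 18.1 CPM in KD and 80.7 and 60.3 CPM in KI. In KI replicate 2, Cd3e alone gave 37.3 CPM of the T cell sum. All 8 T cell genes were tested and negative, and 0 passed. Both KD mice were lower for 4 of the 8, beside 23.5% of all genes, and the other 4 overlapped. B cells also express oxidase subunits, and their list of 6 had 15.8 and 19.96 CPM in KD and 32.7 and 31.6 CPM in KI. Within that list Cd79b gave 13.1 and 16.8 CPM in KD and 10.4 and 28.1 CPM in KI. Only 3 of the 6 were tested, and all 3 overlapped between genotypes. Pax5, not tested, had 4 and 0 counts in KD and 6 and 7 counts in KI. Eosinophil markers reached 138 and 32.2 CPM in KD and 20.4 and 10.6 CPM in KI. Prg2 alone gave 102 and 14.2 CPM in KD and 4.41 and 1.78 CPM in KI. Of the 6 genes 3 were tested, all 3 positive. Epx, not tested, had 241 and 3 counts in KD and 1 and 0 counts in KI. Ccr3 and Il5ra, also not tested, went the other way. Ccr3 had 4 and 4 counts in KD and 14 and 10 in KI, and Il5ra 1 and 0 against 3 and 5. Dendritic cell and MHC class II genes reached 137 and 68.9 CPM in KD and 518 and 79.0 CPM in KI, highest in KI replicate 1.

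The other NADPH oxidases were close to silent. The list of 9 genes, Nox1, Nox3, Nox4, Noxo1, Noxa1, Duox1, Duox2, Duoxa1 and Duoxa2, reached at most 27 counts in a library and summed to 2.90 and 4.41 CPM in KD and to 20.4 and 5.34 CPM in KI. Only Duoxa1, Nox4 and Noxo1 passed the filter, 0 were called, and all 3 values were negative. Duoxa1, a maturation factor of the dual oxidases, had 5 and 2 counts in KD and 17 and 12 counts in KI. Nox4, an oxidase of kidney and vessel wall, had 15 and 8 counts in KD and 27 and 8 counts in KI. Noxo1, the organiser of the epithelial oxidase Nox1, had 13 and 22 counts in KD and 18 and 10 counts in KI. In CPM these 3 genes were highest in KI replicate 1, the library with the raised receptor genes, and the part of that library in their values was not tested.

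Upstream of the oxidase stand Rac exchange factors, kinases and the RhoGDI proteins that keep Rac in the cytosol. Of 21 genes, all tested, 0 passed, 18 were positive and 3 negative, and the median was 0.27, while 9 had both KD mice above both KI mice and 1 had both below (14.5% and 23.5% of all genes). Arhgdia, a RhoGDI of many tissues, lay at 296 and 344 CPM in KD and at 155 and 204 CPM in KI (log2 0.83 ± 0.30, SE). Pik3cd, the leukocyte PI3-kinase delta catalytic chain, lay at 353 and 273 CPM in KD and at 223 and 167 CPM in KI (0.68 ± 0.32). Prex1, a Rac exchange factor of neutrophils, lay at 324 and 238 CPM in KD and at 223 and 166 CPM in KI (0.53 ± 0.33). Their adjusted p values in edgeR were 0.518, 0.561 and 0.684. Arhgdib, the blood cell RhoGDI, had the other sign at -0.46 ± 0.38 with overlapping genotypes, and was named after its values were seen.

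Receptors that trigger the burst had fold changes of both signs. Of 17 genes 0 passed, 11 were positive and 6 negative, and the median was 0.08. Both KD mice were higher for 6 and lower for 3, beside 14.5% and 23.5% of all genes. Csf2rb, the common beta chain that relays GM-CSF, a priming signal of the burst, lay at 343 and 324 CPM in KD and at 153 and 178 CPM in KI (log2 1.01 ± 0.28, SE). Cxcr2, the chemokine receptor of mature neutrophils, lay at 34.8 and 13.2 CPM in KD and at 90.0 and 40.2 CPM in KI (-1.43 ± 0.61). C5ar1, the receptor for complement C5a, lay at 33.04 and 13.5 CPM in KD and at 50.8 and 44.6 CPM in KI (-1.03 ± 0.48). None passed, with adjusted p = 0.518, 0.531 and 0.560 in edgeR.

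Enzymes that handle the products of the oxidase showed no common direction. Of 15 tested genes among 16, 0 passed, 7 were positive and 8 negative, and the median was -0.02. Prdx1, a peroxiredoxin that reduces hydrogen peroxide, lay at 122 and 155 CPM in KD and at 64.2 and 92.8 CPM in KI (log2 0.82 ± 0.32, SE). Gpx1, a glutathione peroxidase, lay at 580 and 802 CPM in KD and at 396 and 503 CPM in KI (0.62 ± 0.35). Glrx, a glutaredoxin, lay at 28.0 and 27.4 CPM in KD and at 31.8 and 80.9 CPM in KI (-1.03 ± 0.48). In a list drawn up by name for NADPH supply, 7 of 8 genes were tested and 0 passed. Of those tested 4 were positive and 3 negative, and the median was 0.06. How much each enzyme adds to that supply was not measured. G6pdx, the first enzyme of the pentose phosphate pathway, had a log2 value of 0.39 ± 0.28, Idh1 one of 0.32 ± 0.27 and Me2 one of 0.36 ± 0.32.

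Transcription factors tied to oxidase genes numbered 13, all tested, with 0 passing, 9 positive and 4 negative and a median of 0.22. Cebpe, needed for late granulocyte genes, lay at 28.5 and 27.0 CPM in KD and at 51.7 and 176 CPM in KI (log2 -2.04 ± 0.60, SE). Gata1, an erythroid and eosinophil factor, lay at 1.98 and 0.259 CPM in KD and at 6.73 and 8.42 CPM in KI (-2.73 ± 1.01). Cebpb, a factor of macrophages and of emergency granulopoiesis, lay at 285 and 346 CPM in KD and at 177 and 197 CPM in KI (0.75 ± 0.29). All 3 had adjusted p = 0.518 in edgeR. Spi1, which encodes PU.1, lay at 177 and 159 CPM in KD and at 129 and 130 CPM in KI, and was named after its values were seen.

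**Figure D5:**
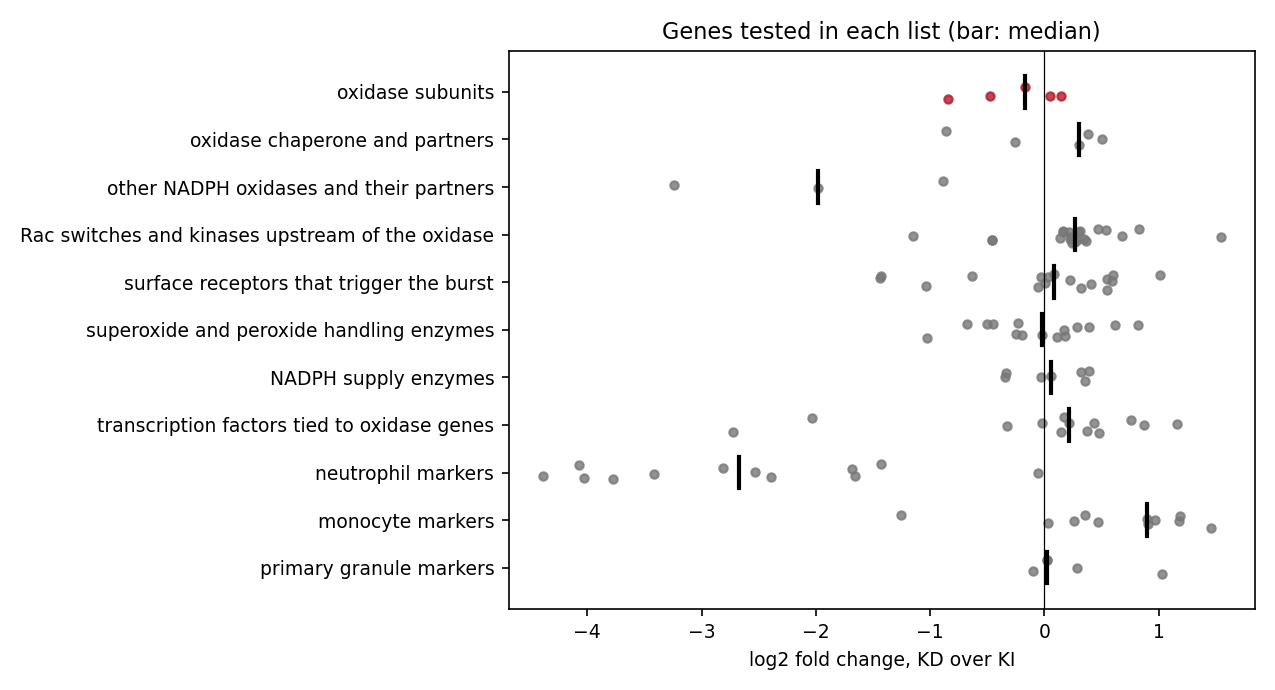
Log2 fold change, KD over KI (horizontal axis), of every tested gene in each list, with a bar at the list's median. The subunits, in red, spread around a median of -0.17. The lowest median is that of the neutrophil markers, at -2.67, and the highest that of the monocyte markers, at 0.89. Every other list shown lies between these, as the subunits do.

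By shape across the 4 libraries, measured as the Euclidean distance between centred log2 CPM profiles among 6392 other genes of at least 20 CPM, the nearest genes were different for each subunit. Nearest to Ncf1 were Unc119 (distance 0.05), Lgals9 (0.09) and Lrp8 (0.12). Unc119 lay at 33.8 and 43.2 CPM in KD and at 58.4 and 75.2 CPM in KI. For Cybb they were Snap23, Ash1l and Rap1b (0.03 to 0.04), and for Cyba Zbtb17, Tmem242 and Kdm6a (0.04 to 0.05). Sod2, Traf3 and Prmt9 were nearest to Ncf4 (0.04 to 0.06), and Sbno1, Mcph1 and Ocrl to Rac2 (0.03 to 0.05). Among the subunits themselves the distances ran from 0.43 between Ncf4 and Rac2 to 1.32 between Cybb and Ncf1. The neighbours were picked as the closest of 6392 genes, so their smaller distances are no sign that the subunits are unlike each other. Over 4 libraries such likeness is weak, since many genes share any given order.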

How the data were processed

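RNA libraries were made with a stranded mRNA kit, per the labels. The authors deposited raw counts per Ensembl gene, made with TopHat2 2.0.10, SAMtools, HTSeq and DESeq on GRCm38, per the submitters' processing notes. Neither the strand setting nor the annotation release is given in the sources used here. Summary entries that name no gene held 93.2% to 97.9% of the deposited totals and were not used. Symbols matched 40254 of 41214 gene IDs. The 8 chromatin libraries were not analysed here, since the columns of their tables name no library.

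In R 4.3.3, edgeR 4.0.16 kept genes by filterByExpr, scaled by TMM (factors 1.19 and 1.13 in KD, 0.957 and 0.778 in KI) and fitted genotype alone with glmQLFit and glmQLFTest, with Benjamini-Hochberg adjustment over all 13822 genes at 0.05. The fit was also run on simulated counts in which every planted change was larger than the fold change of any subunit. That run therefore does not bear on changes of the size seen in the subunits. Alternatives used DESeq2 1.42.0, limma 3.58.1 (voom), other scalings and filters, the replicate number as a block, and each library left out with the genes tested kept the same. In all, 3 counts correspond to 0.212 and 0.259 CPM in KD and to 0.696 and 0.356 CPM in KI. Coordinates and promoter sequences come from RefSeq tables of GRCm38.p6. Exon lengths were not used, so levels of different genes are not compared.

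The subunits and lists were chosen with earlier results of these data known. The text names all 5 subunits, the 3 genes of each related list with the lowest p (and any past the threshold), the 3 genes nearest in profile to each subunit, and Gfi1. Some listed genes are not reported here.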

Additional observations from a re-analysis of the deposited data

How the results depend on the processing

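No subunit passed the threshold under any alternative run. Values below are log2 fold changes, KD over KI. Cybb reversed to -0.057 with upper quartile scaling and -0.0511 with at least 5 CPM in 2 libraries, and Rac2 to 0.27 with library size only and 0.0038 with no low-count filter. Leaving out each library gave -0.29 to 0.52 for Cybb (-0.29 without KD replicate 1, -0.13 without KI replicate 2), -0.14 to 0.51 for Cyba (-0.14 without KD replicate 2), -0.69 to 0.0684 for Ncf4 and -0.32 to 0.12 for Rac2 (0.0684 and 0.12 without KI replicate 2), and -1.04 to -0.58 for Ncf1. The median of the 5 was -0.32 to 0.0684 in those fits, 0.27 with library size only and 0.0038 with no low-count filter. Of all genes, 169 were called with no low-count filter (29 higher, 140 lower), 142 with DESeq2 (5 higher, 137 lower) and 39 to 787 with 1 library left out (13 higher and 774 lower without KI replicate 2, 3 and 79 without KD replicate 1, 10 and 29 without KD replicate 2, but 149 higher and 104 lower without KI replicate 1), where the lone mouse of a genotype is assumed to vary like the other genotype. With the replicate block 7 genes were called, all lower in KD, and Ncf1 had -0.84 (adjusted p = 0.300). Replicate differences of the genotypes correlated at 0.25 across genes, but the labels do not say that the numbers pair mice. The causes of these changes were not tested. With 2 mice per genotype the 95% intervals of the subunits span at least 1.56 on the log2 scale from end to end.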
